A study of Mus musculus with 12 samples.

Results

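Every uterus with an ablated gene was set against the control uteri: 9 of the 12 mouse uteri of the study, chosen because the titles of their arrays carry the ending cKO. Of these, 3 are labelled Cdh1 cKO (genotype Cdh1-, P53+), 3 Trp53 cKO (Cdh1+, P53-) and 3 double cKO (Cdh1-, P53-). The other 3 uteri are the controls, labelled wild type (Cdh1+, P53+). All are labelled as coming from female C57BL/6 mice of 2 months, and each gave whole-uterus RNA to 1 Illumina bead array. The recombinase, the cells it acts in and the exons it removes are not given in these labels, nor are the cycle stage of each mouse and the chip that held each array. Nothing in the labels says from which litters the mice came, so p-values measure only the spread between these uteri. Trp53 was not analysed here.

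Cdh1 encodes E-cadherin, which joins epithelial cells at adherens junctions, and Trp53 encodes p53, a transcription factor that halts the cycle of damaged cells. In the uterus, estrogen drives the epithelium to divide and secrete, and progesterone, acting through the receptor encoded by Pgr, restrains that growth and prepares the stroma for implantation. Nupr1 encodes a small chromatin-associated protein that many cells make under stress. Pgr and Nupr1 were given with the choice of arrays as the genes to look at first.

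The region around the start of each of these 2 genes is shown because their levels open the results, as 300 bases of the RefSeq assembly GRCm38.p6. Nupr1 lies on the minus strand (chr7:126625421-126625720) and Pgr on the plus strand (chr9:8899583-8899882), and capitals mark matches, on either strand, to the GC box letters GGGCGG, the E-box letters CACGTG or the TATA box letters TATAAA.
Nupr1: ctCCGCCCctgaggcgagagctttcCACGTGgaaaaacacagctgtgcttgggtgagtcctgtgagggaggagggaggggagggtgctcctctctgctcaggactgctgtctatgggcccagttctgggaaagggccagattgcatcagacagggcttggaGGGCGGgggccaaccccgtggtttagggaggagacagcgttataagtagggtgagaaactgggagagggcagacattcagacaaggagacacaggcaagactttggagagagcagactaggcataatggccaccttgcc
Pgr: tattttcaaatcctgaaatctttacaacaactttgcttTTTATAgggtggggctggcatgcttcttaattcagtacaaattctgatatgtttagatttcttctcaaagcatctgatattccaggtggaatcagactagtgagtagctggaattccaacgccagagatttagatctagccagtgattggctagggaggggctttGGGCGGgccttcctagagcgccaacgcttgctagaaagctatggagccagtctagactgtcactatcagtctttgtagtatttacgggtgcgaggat
GC box letters stood in both sequences, E-box letters in that of Nupr1 and TATA box letters in that of Pgr. TGANTCA, the letters of an AP-1 site, and GGAAGT, those of an ETS site, were also searched on both strands and had no match in these 2 windows. A match is a description of the letters and not a binding site.

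The arrays detected 44.3% to 47.9% of their 45281 probes, with a median of 41 to 43 beads per probe. All 9 uterine markers had a probe, and 8 of them were detected on all 12 arrays, with Hoxa11 on 9. Pearson's r between arrays was 0.957 to 0.987 for ablated with control uteri, 0.961 to 0.985 between ablated genotypes, 0.963 to 0.99 within an ablated genotype and 0.975 to 0.989 among controls. Among controls, only replicate 3 was most like an array of another group, that of Trp53 cKO replicate 1, at r = 0.987. The 3 Cdh1 cKO arrays and Trp53 cKO replicate 2 were also most like an array of another group. The median of control replicate 3 over the proliferation genes lay 0.71 above the control mean on the log2 scale, while those of control replicates 1 and 2 lay at -0.38 and -0.35. The oviduct and ciliated cell genes had a median of 1.19 in double cKO replicate 1, against -0.53 to 0.13 in the other 11 arrays.

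Cdh1 checks the labels as far as its probes allow, the brighter one being used. Its log2 signal was 9.74, 9.58 and 9.98 in the uteri labelled Cdh1 cKO, 9.26, 9.13 and 9.04 in those labelled Trp53 cKO and 9.67, 8.18 and 7.36 in those labelled double cKO, against 9.71, 9.41 and 10.08 in controls. The uteri labelled Cdh1 cKO lay within the control range, all 3 labelled Trp53 cKO and double cKO replicates 2 and 3 lay below it, and the pooled difference was -0.63 ± 0.46 (SE, 9 against 3, limma adjusted p = 0.734). A far dimmer detected Cdh1 probe differed by 0, with means of 5.21 in ablated uteri and 5.20 in controls. Without the deleted exons it is not known whether these probes lie in them, so Cdh1 cKO, Trp53 cKO and double cKO mean below the uteri labelled so, and directions drawn from the uteri labelled Cdh1 cKO rest on that label.

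Genes are compared below in 3 ways. In the first, limma tested the mean of the 9 ablated uteri against the mean of the 3 controls for 12194 genes. It called 0 genes (0%) at an adjusted p below 0.05, while 946 (7.76%) had an unadjusted p below 0.05, 405 of them higher (3.32%) and 541 lower (4.44%) in ablated uteri. The smallest adjusted p was 0.541. Spread between the 3 genotypes counts as error in that fit. The second way keeps a mean per genotype and tests the average of the 3 ablated means against control. It called 21 genes (0.172%), 17 higher (0.139%) and 4 lower (0.0328%), but limma called 0 genes by it once the 3 double cKO arrays were left out, with 650 at an unadjusted p below 0.05, and 8 genes with the replicate number as a block. The third way makes no test. It counts a gene as beyond the controls when all 9 ablated values lay above all 3 control values (65 genes, 0.533%) or below them (118 genes, 0.968%), which is 183 genes in all (1.5%). It counts a gene as shifted the same way when the mean of each genotype lay at least 0.5 from control on the log2 scale, which gave 239 genes higher (1.96%) and 188 lower (1.54%), 427 in all (3.5%). Of these, 32 (0.262% of all genes) and 27 (0.221%) were also beyond the controls. The 3 genotype differences of a gene are all taken from the same 3 controls, so their agreement is not 3 separate results. At any size, 2919 genes (23.9%) were higher in all 3 genotypes and 3659 (30%) lower.

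Sizes of the 65 genes above all controls ran between 0.17 and 3.25 on the log2 scale, with a median of 0.8, and 24 of them reached 1. Those below all controls ran between -0.15 and -2.18 with a median of -0.47, and 12 reached -1. In both directions the double cKO most often lay farthest from control, for 43 of the 65 and 71 of the 118 genes, and the Trp53 cKO least often, for 3 and 12. The genotype medians over the 65 genes were 0.82 in the Cdh1 cKO, 0.54 in the Trp53 cKO and 0.91 in the double cKO, and over the 118 genes -0.5, -0.34 and -0.53. All 3 controls were at the array's background for 12 of the 65 genes, which entered the comparison through the ablated arrays alone. Scgb2b27 lay just within the rule, with a gap of 3.48e-04 between its nearest ablated and control values, and Epb41l1 just outside, with a gap of -6.66e-04, an overlap. The widest gaps belonged to H2-Q6 at 0.818, Ctsc at 0.596, Gjb6 at 0.474, Krt17 at 0.401 and Pllp at 0.393.

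The progesterone receptor gene Pgr was below all controls in all 9 ablated uteri. Its log2 signal was 8.47, 7.60 and 8.73 in the Cdh1 cKO, 8.53, 8.75 and 8.41 in the Trp53 cKO and 7.44, 8.33 and 8.07 in the double cKO, against 9.39, 9.07 and 8.99 in controls. The difference was -0.89 ± 0.27 (SE), or 1.85-fold lower, with an unadjusted p of 0.00578 and a limma adjusted p of 0.573. A dimmer Pgr probe differed by -0.59 and its groups overlapped. In whole tissue, fewer cells of a type and less RNA per cell cannot be told apart, here and in all that follows. Of 28 tested genes of progesterone receptor signalling, 7 had a higher mean in ablated uteri, as 46.5% of all genes did, and the list's median was -0.25, against -0.02 over all genes. At an unadjusted p below 0.05 there were 1 higher and 2 lower, against 3.32% and 4.44% of all genes. Hhip, which binds hedgehog ligands, differed by -0.95 ± 0.34, and Gli2, a hedgehog transcription factor, differed by -0.47 ± 0.23. Wnt4, a ligand needed for decidualisation, differed by 1.17 ± 0.48, and 7 of 9 ablated values were above all controls. The most strongly expressed members were Fkbp4, a co-chaperone of the receptor, at 0.11 ± 0.21, and Gata2, a transcription factor upstream of it, at -0.54 ± 0.33. Control replicate 3 had a median of -0.32 over the list, lower than in 7 of the 9 ablated uteri, while control replicates 1 and 2 had 0.22 and 0.26.

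Nupr1 was the stress gene that stood out. It measured 11.68, 11.40 and 11.71 in the Cdh1 cKO, 10.43, 11.42 and 10.80 in the Trp53 cKO and 12.55, 12.45 and 12.58 in the double cKO, against 9.75, 9.89 and 10.49 in controls. The double cKO was highest and even, and Trp53 cKO replicate 1 alone fell inside the control range, so 8 of 9 values were above all controls. The pooled difference was 1.62 ± 0.43 (SE), or 3.08-fold higher, with a limma adjusted p of 0.541. With a mean per genotype the adjusted p was 0.0166, and the 3 genotypes differed from each other at an adjusted p of 0.0311. Over the 29 tested genes of the integrated stress response, Nupr1 among them, the median was -0.03 and 14 had a higher mean in ablated uteri. At an unadjusted p below 0.05, 2 were higher, Nupr1 and Atf3, and 0 lower, against 3.32% and 4.44% of all genes. Atf3, a transcription factor of acute stress, differed by 0.84 in the Cdh1 cKO, 0.28 in the Trp53 cKO and 1.22 in the double cKO (0.78 ± 0.35 pooled). Cebpb, which also regulates inflammation and decidualisation, differed by 0.64, 0.17 and 1.09 in that order (0.64 ± 0.33 pooled). Gpt2, an aminotransferase, had -0.56 ± 0.31, Gars, a tRNA synthetase, -0.12 ± 0.13 and Herpud1, of protein degradation at the endoplasmic reticulum, -0.25 ± 0.14.

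**Figure D1:**
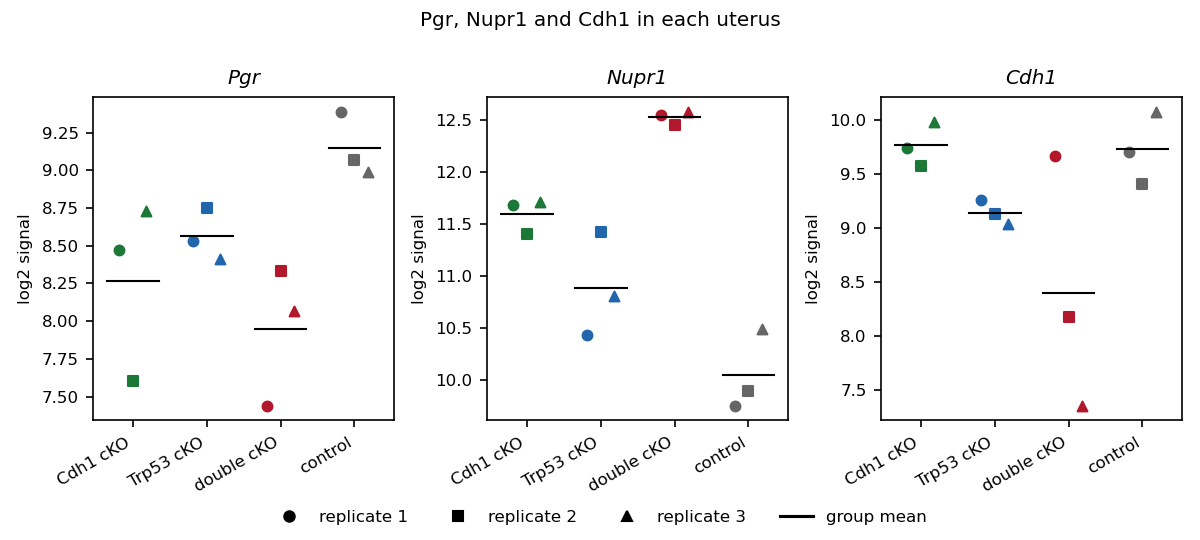
Log2 signal (vertical axis) of Pgr, Nupr1 and Cdh1 in each uterus, by labelled group, with bars at group means. All 9 ablated values of Pgr lie below the lowest control at 8.99, 8 of 9 values of Nupr1 lie above the highest control at 10.49, and Cdh1 overlaps.

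Among genes above all controls, the largest difference was that of S100a8, which encodes a calcium-binding protein abundant in neutrophils. It measured 7.74, 9.04 and 9.31 in the Cdh1 cKO, 9.06, 7.52 and 7.23 in the Trp53 cKO and 12.24, 11.49 and 12.25 in the double cKO, against 6.19, 5.72 and 6.96 in controls. The double cKO stood well above the other genotypes, and the pooled difference of 3.25 ± 1.07 had an adjusted p of 0.573 in limma's pooled fit and 0.0188 with a mean per genotype. Krt17, a keratin of stratified and injured epithelium, measured 6.77, 7.97 and 9.49 in the Cdh1 cKO, 7.79, 7.03 and 8.27 in the Trp53 cKO and 9.98, 11.80 and 11.72 in the double cKO, against 5.21, 6.16 and 6.37 in controls. Its difference was 3.07 ± 1.01, with limma adjusted p-values of 0.573 pooled and 0.0731 with a mean per genotype.

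Other genes above all controls were much closer between genotypes. Ctsc, the protease that activates the serine proteases of neutrophils, differed by 2.51, 1.97 and 3.13 in the Cdh1, Trp53 and double cKO. Its 9 ablated values ran between 9.92 and 12.06, and its controls stood at 5.88, 9.32 and 9.24, so control replicate 1 set much of the size. Both other detected Ctsc probes were also above all controls, by 2.12 and 2.46. Sowahb, an ankyrin repeat gene, differed by 1.87, 1.63 and 2.01, and measured 8.0 to 9.72 in ablated uteri with a median of 8.95, against 6.43 to 7.80 in controls. Sgpp2, a phosphatase of sphingosine 1-phosphate, differed by 1.86, 1.25 and 2.37. Tnfrsf12a, the receptor of the cytokine TWEAK, differed by 1.69, 1.27 and 2.09, and measured 9.18 to 11.01 in ablated uteri against 7.95 to 8.82 in controls. H2-Q6, a class I histocompatibility gene, differed by 2.03, 2.11 and 2.39. These 5 genes had limma adjusted p-values of 0.541 in the pooled fit and of 0.0797 to 0.146 with a mean per genotype.

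The remaining 5 of the 12 largest were less even between genotypes or uteri. Fcgr4, an activating Fc receptor of myeloid cells, measured 7.52 to 10.78 with a median of 9.49 in ablated uteri, against 7.07 to 7.38 in controls, and differed by 1.73, 0.96 and 3.12. Ppbp, a chemokine of platelets that draws neutrophils, reached 8.55, 8.71 and 10.67 in the double cKO but only 4.80, 4.70 and 4.77 in the Trp53 cKO, against 4.63, 4.59 and 4.42 in controls. Its probe was not detected in any control, so the pooled difference is given as at least 3.47-fold higher (limma adjusted p = 0.683). It was detected on no Trp53 cKO array either, so those values and the controls were at background and have no order. Clca3b, an epithelial secreted protein, was likewise not detected in controls and was at least 3.24-fold higher (limma adjusted p = 0.596). By genotype it was at least 4.14-fold higher in the Cdh1 cKO, 1.1-fold in the Trp53 cKO and 7.46-fold in the double cKO. Akr1c18, which inactivates progesterone, measured 10.76 in Cdh1 cKO replicate 1 and 4.60 to 7.52 in the other ablated uteri, against 4.38 to 4.46 in controls, where it was not detected. Its pooled difference was at least 2.62-fold higher, with a limma adjusted p of 0.691. The Akr1c18 probe was detected on 7 of 9 ablated arrays but on 1 of 3 in the Trp53 cKO, and undetected values have no order. Pinlyp, a phospholipase inhibitor gene, measured 11.09 in that same uterus and 5.10 to 7.99 in the other 8, against 4.50 to 4.93 in controls.

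Vit, which encodes the matrix protein vitrin, had the largest difference among genes below all controls. It measured 5.45, 4.65 and 4.54 in the Cdh1 cKO, 6.86, 6.09 and 6.34 in the Trp53 cKO and 4.60, 4.44 and 4.45 in the double cKO, against 7.79, 7.61 and 6.95 in controls. The difference was -2.18 ± 0.52, with a limma adjusted p of 0.541 pooled and 0.00624 with a mean per genotype. The Trp53 cKO lay nearest the controls, at -1.02. The Cdh1 cKO, with the probe detected on 1 of 3 arrays, had -2.57, and the double cKO, with none detected, was at least 6.06-fold lower. The genotypes differed at an adjusted p of 0.0202.

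Pllp, the gene of the myelin and epithelial protein plasmolipin, had the smallest unadjusted p of all genes, 8.44e-05. It measured 4.82, 5.47 and 5.35 in the Cdh1 cKO, 5.20, 4.79 and 5.48 in the Trp53 cKO and 5.97, 4.68 and 5.15 in the double cKO, against 6.58, 6.79 and 6.36 in controls. The genotype differences of -1.37, -1.42 and -1.31 were nearly equal, and the adjusted p in limma's pooled fit was 0.541. Its probe was detected on 6 of 9 ablated arrays, 2 in each genotype, so these sizes rest in part on values at background. Nos1, the neuronal nitric oxide synthase, measured 4.35 to 5.93 with a median of 4.72 in ablated uteri, against 5.95 to 6.87 in controls (-1.50 ± 0.31, with the probe detected on 2 of 9 ablated arrays), though a second probe differed by -0.01. Ifi202b, an interferon-induced DNA sensor gene, measured 4.35 to 6.13 with a median of 4.49 in ablated uteri, where it was also detected on 2 of 9 arrays, against 6.25 to 6.38 in controls.

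Differences of the other genes of this group were similar in size. Unc13c, a vesicle priming gene detected on 3 of 9 ablated arrays, had a difference of -1.27 ± 0.31 and Slc6a13, a GABA transporter gene, -1.26 ± 0.51. Gcnt3, an enzyme of mucin glycans, measured 7.19 in Cdh1 cKO replicate 1 and 9.68 to 10.81 in the other ablated uteri, against 11.04 to 11.38 in controls. Jakmip1, a microtubule-binding protein gene, differed by -1.16 ± 0.35, Rnft2 by -1.13 ± 0.28 and Negr1, a neuronal adhesion gene, by -1.11 ± 0.35. Mir99ahg, a microRNA host gene, differed by -1.04 ± 0.27 and Shisal1, detected on 6 of 9 ablated arrays, by -1.02 ± 0.32. Of the 12 genes, 1 passed with a mean per genotype, namely Vit, and the limma adjusted p-values of the other 11 in that fit were 0.0819 to 0.506.

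**Figure D2:**
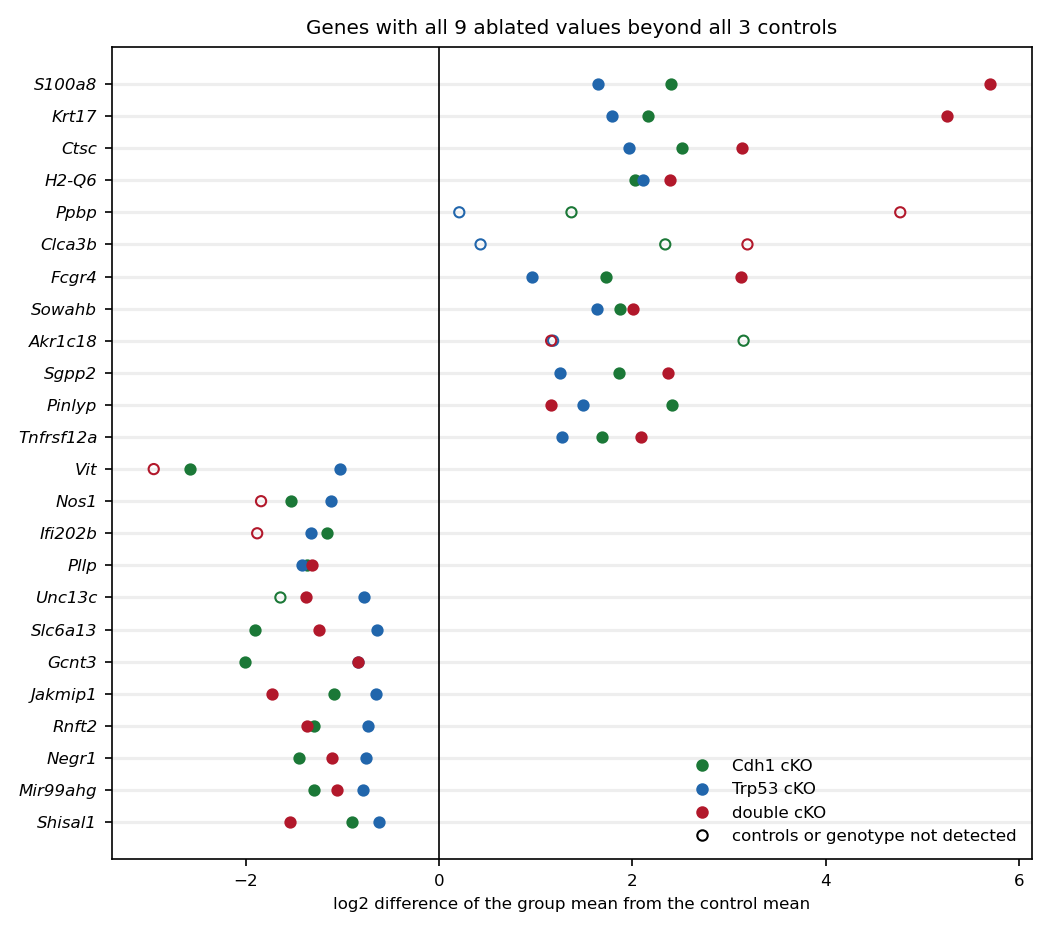
Log2 difference of each ablated genotype's mean from the control mean (horizontal axis) for the 12 genes farthest above and the 12 farthest below all controls. Open points, such as those of Ppbp, Clca3b and Akr1c18, have no detected array among the controls or in that genotype, so their distance from 0 is not a measured size. The double cKO points of S100a8 and Krt17 lie at 5.70 and 5.25, far right of the other genotypes, while the 3 points of Pllp nearly coincide; for Gcnt3 the Trp53 cKO and double cKO points coincide at -0.84.

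The 21 genes called with a mean per genotype include genes of myeloid cells, of matrix remodelling and of inflammation; apart from Nupr1, S100a8 and Vit they are named here after their values were seen. Il1b, the inflammatory cytokine interleukin 1 beta, measured 6.60, 6.80 and 8.23 in the Cdh1 cKO, 5.93, 4.75 and 5.63 in the Trp53 cKO and 10.93, 9.34 and 11.14 in the double cKO, against 4.52, 4.65 and 5.12 in controls. The difference was 2.44 in the Cdh1 cKO, 0.67 in the Trp53 cKO and 5.70 in the double cKO, and the genotypes did not overlap. The neutrophil protein gene S100a9 had 1.73, 1.16 and 5.16. Clec4d, a lectin of myeloid cells, had 1.26, 0.51 and 3.57, Sirpb1a, a myeloid signal-regulatory protein gene, 1.05, 0.67 and 2.99, and Slc15a3, a lysosomal peptide transporter gene, 1.44, 0.61 and 2.68. Col8a1, a short-chain collagen, had 1.11, 0.56 and 3.73, Cldn4, a claudin of tight junctions, 1.40, 0.20 and 2.47, and Tnfaip2, induced by tumour necrosis factor, 1.44, 0.48 and 2.63. Dpep2, a dipeptidase, had 0.92, 0.25 and 1.57, and Cd300ld, a myeloid receptor, 1.03, 0.61 and 1.66. The other detected Dpep2 probes had pooled differences of -0.20 and 0.81. Each of the 17 genes higher on average was highest in the double cKO. S100a8, Cd300ld, Sirpb1a and Slc15a3 were above all controls in all 9 ablated uteri.

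For another 5 of the 17 no control array was above background, so that they entered the comparison through ablated arrays alone and have only a bound on their size. Il1rn, the receptor antagonist of interleukin 1, measured 6.53, 6.24 and 6.69 in the Cdh1 cKO, 5.31, 4.65 and 5.28 in the Trp53 cKO and 9.31, 8.77 and 9.61 in the double cKO, and was at least 20.6-fold higher in the double cKO and 3.08-fold in the Cdh1 cKO. Mmp13 and Mmp12, matrix metalloproteinases, were at least 19.2-fold and 9.83-fold higher in the double cKO, and were detected on no Trp53 cKO array. A second Mmp13 probe, detected on 4 arrays, differed by -0.06, with means of 4.78 in ablated uteri and 4.84 in controls. Tnf, the cytokine tumour necrosis factor, was at least 2.86-fold higher in the double cKO and was also detected on no Trp53 cKO array. Plek, of platelets and leukocytes, was detected on all 9 ablated arrays and was at least 2.31-fold higher in the double cKO. All 9 values of Tnf and of Plek were above those of all controls, but those controls, and for Tnf 4 of the 9 ablated values, were at background and have no order.

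Of the 4 called lower, Arsj, an arylsulfatase gene, had differences of -1.61 in the Cdh1 cKO, -0.44 in the Trp53 cKO and -2.94 in the double cKO. A dimmer Arsj probe, detected on 6 arrays, had a pooled difference of -0.18. Trim11, a ubiquitin ligase gene, did not shift the same way and was detected on no Trp53 cKO or double cKO array: it measured 7.94, 7.56 and 7.64 in the Cdh1 cKO, 4.82, 4.24 and 4.59 in the Trp53 cKO and 4.38, 4.38 and 4.38 in the double cKO, against 6.93, 6.90 and 7.55 in controls. The clone-named gene 4933427D14Rik had the same layout, with differences of 0.15, -3.02 and -3.11. Both genes lie on chromosome 11. The number of genes called in this fit was 4, 3 and 88 without control replicates 1, 2 and 3, 10 without double cKO replicate 3 and 32 without Cdh1 cKO replicate 1. Among the 88 genes called without control replicate 3 were 15 of the 21.

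Genotypes differed among themselves for 117 genes (0.959%) at a limma adjusted p below 0.05, and 1275 (10.5%) had an unadjusted p below 0.05. Among the 117 were 6 of the 65 genes above all controls, 2 of the 118 below all controls and 19 of the 21 called with a mean per genotype, Cd300ld and Plek being the exceptions. The test of that difference is separate from the comparison with control.

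Most genes of myeloid cells had a higher mean in ablated uteri, and list medians were highest in the double cKO. Of 21 tested neutrophil genes 18 had a higher mean in ablated uteri, against 46.5% of all genes, with a median difference of 0.92. At an unadjusted p below 0.05 there were 8 higher and 1 lower, against 3.32% and 4.44% of all genes. With a mean per genotype 4 passed, all higher, against 0.139% of all genes, namely S100a8, S100a9, Clec4d and Il1b. In the test among genotypes 8 of the 21 passed, against 0.959% of all genes. Slpi, a protease inhibitor, differed by 2.56 ± 0.66 and Lcn2, which binds siderophores, by 2.74 ± 1.03. Lcn2 is also made by uterine epithelium and measured 14.29 in control replicate 3, against 9.71 and 9.37 in the other controls. Hdc, the histamine-forming enzyme, differed by -2.07 ± 0.75, and Ltf, which the epithelium makes as well, had 1.24 ± 0.69. The list's median per uterus was 2.53, 1.76 and 2.44 in the double cKO, 0.50 to 0.82 in the Cdh1 cKO and 0.20 to 0.36 in the Trp53 cKO, against -0.11 to 0.08 in controls. Its summed signal ran from 17800 to 73500 in ablated uteri and from 19200 to 35300 in controls, so the sums overlapped.

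Macrophage genes had a median difference of 0.67, with 30 of 31 above 0, against 46.5% of all genes. The list's median per uterus was 1.34, 1.28 and 1.07 in the double cKO, against -0.46 to 0.44 in controls. It was 0.38 to 0.59 in the Cdh1 cKO and -0.05 to 0.56 in the Trp53 cKO, both overlapping the controls. In the test among genotypes 5 of the 31 passed, against 0.959% of all genes. At an unadjusted p below 0.05, 8 were higher and 0 lower, against 3.32% and 4.44% of all genes, and none passed either fit. Fcer1g, the signalling chain of Fc receptors, measured 9.66 to 11.70 in ablated uteri, with a median of 11.03, against 8.68 to 9.74 in controls (1.57 ± 0.45, in 8 of 9 above all controls). Fcgr1, a high-affinity Fc receptor, differed by 1.11 ± 0.31, Adgre1, a surface marker of macrophages, by 0.85 ± 0.24 and Ms4a7 by 0.81 ± 0.32. The most strongly expressed members, Lyz1 and Laptm5, had 0.82 ± 0.45 and 0.24 ± 0.25, though the other detected Lyz1 probes, both far dimmer, differed by -0.24 and -0.16. The list's summed signal was 24000 to 73900 in ablated uteri and 18700 to 31500 in controls. T and NK cell genes had a median of -0.09 over 19 tested, 7 of them above 0. At an unadjusted p below 0.05 there were 0 higher and 3 lower, against 3.32% and 4.44% of all genes. The lower ones were the receptor gene Klrg1 (-0.79 ± 0.27), the granzyme gene Gzmd (-1.40 ± 0.54) and the granule protein gene Nkg7 (-1.01 ± 0.41), while Il7r, the interleukin 7 receptor, had 0.82 ± 0.39. A dimmer Gzmd probe, detected on 4 arrays, differed by -0.03. Cd8b1 and Prf1, the strongest members, had -0.07 ± 0.16 and -0.29 ± 0.20. The list had summed signals of 4050 to 5980 in ablated uteri and 4770 to 5430 in controls. Whether the number of myeloid cells differed was not tested.

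Genes of the interferon response and of cytokines followed. Of 30 tested interferon genes 29 had a higher mean in ablated uteri, against 46.5% of all genes, and the median difference was 0.54. At an unadjusted p below 0.05, 9 were higher and 0 lower, against 3.32% and 4.44% of all genes, and none passed either fit. Isg15, a ubiquitin-like modifier, measured 8.06, 9.09 and 10.29 in the Cdh1 cKO, 9.70, 9.55 and 10.68 in the Trp53 cKO and 11.09, 9.74 and 9.44 in the double cKO, against 7.81, 8.24 and 7.49 in controls (1.89 ± 0.49). Only Cdh1 cKO replicate 1 overlapped with controls. Usp18, which removes that modifier, differed by 1.33 ± 0.46, Oasl1 by 1.45 ± 0.51 and Irf7, a transcription factor of the response, by 1.45 ± 0.55, and each was above all controls in 8 of 9 uteri. Ifi27 and Irgm1, the strongest members, had 0.07 ± 0.18 and 0.24 ± 0.16. The list's median was 0.40 in the Cdh1 cKO, 0.49 in the Trp53 cKO and 0.79 in the double cKO. None of the 30 passed the test among genotypes, as 0.959% of all genes did.

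Of 32 tested cytokines and receptors 28 were above 0, against 46.5% of all genes, with a median of 0.44. At an unadjusted p below 0.05, 8 were higher and 0 lower, against 3.32% and 4.44% of all genes. Il6ra, a chain of the interleukin 6 receptor, was above all controls in all 9 uteri (0.48 ± 0.17), and measured 7.17 to 8.07 against 6.92 to 7.12. Tnfrsf1b, a receptor of tumour necrosis factor, differed by 0.83 ± 0.28, Csf2ra by 0.43 ± 0.15 and Il10rb by 0.70 ± 0.28, though a second Il10rb probe differed by -0.06. Il13ra1 had 0.66 ± 0.40, and Il6st, the shared signal chain of that cytokine family, had 0.93 ± 0.64. Control replicate 2 measured 6.02 for Il6st, against 9.74 and 10.20 in the other controls, and without it the difference was -0.38.

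Lists of epithelial genes had medians above 0 and those of stromal and vessel genes medians below 0, with much overlap between groups, and of these genes only Vit passed with a mean per genotype. Uterine epithelium genes had a median of 0.61, 23 of 25 above 0, against 46.5% of all genes. At an unadjusted p below 0.05, 5 were higher and 0 lower, against 3.32% and 4.44% of all genes. Wnt7b, a Wnt ligand, differed by 1.98 ± 0.58, Pax8, a transcription factor of the reproductive tract, by 0.64 ± 0.21, and the protease inhibitors Spint1 and Spint2 by 0.81 ± 0.29 and 0.78 ± 0.27. The other detected Pax8 probes differed by -0.18 and 0.30. Krt8, a keratin of simple epithelium, had 0.33 ± 0.22 and Rab25 0.51 ± 0.29. The list's median in control replicate 3 was 0.65, inside the ablated range of 0.16 to 1.15, against -0.44 and -0.30 in the other controls. Genes of squamous epithelium had a median of 0.96 over 19 tested, with 5 higher and 0 lower by that measure, against the same shares of all genes. Krt17, Gjb6 and Ivl were above all controls, as were 0.533% of all genes. Gjb6, a connexin, measured 6.74 to 9.71 with a median of 7.20 in ablated uteri, against 6.05 to 6.27 in controls. Ivl, involucrin of the cornified envelope, measured 5.32 to 8.45, against 4.48 to 5.30. Tgm1, which cross-links that envelope, had 0.79 ± 0.34 and Krt10 0.05 ± 0.19. Cdh1 cKO replicate 3 alone had a list median of 3.55, and the other 8 ablated uteri had 0 to 1.05.

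Estrogen response genes had a median of 0.41, 19 of 29 above 0, against 46.5% of all genes. By genotype the median was 0.71 in the Cdh1 cKO, 0.09 in the Trp53 cKO and 0.82 in the double cKO. At an unadjusted p below 0.05, 6 were higher and 1 lower, against 3.32% and 4.44% of all genes. Lrp2, the endocytic receptor megalin, measured 4.61, 6.10 and 4.82 in the Cdh1 cKO, 8.45, 5.80 and 6.09 in the Trp53 cKO and 7.90, 8.11 and 9.24 in the double cKO, against 11.28, 10.64 and 8.54 in controls (-3.36 ± 0.97, limma adjusted p = 0.561). Only double cKO replicate 3 overlapped with controls. A far dimmer Lrp2 probe, detected on 6 arrays, differed by -0.15. Slc26a4, an anion exchanger gene, differed by 2.62 ± 0.99 and Sprr2d, a cornified envelope gene, by 3.52 ± 1.37, while Ctsb, a lysosomal protease gene, had 0.24 ± 0.18. The cycle stage of the uteri is not known, and its part in these differences was not tested.

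Endometrial stroma genes had a median of -0.35, 6 of 27 above 0, against 46.5% of all genes. At an unadjusted p below 0.05, 1 was higher and 5 lower, against 3.32% and 4.44% of all genes. Vit and Igfbp5 were below all controls, as were 0.968% of all genes. Igfbp5, which binds insulin-like growth factors, measured 12.27 to 13.61 with a median of 13.28, against 13.63 to 13.99 in controls, and a second of its 3 detected probes was also below all controls. Igfbp4 differed by -0.97 ± 0.38, and the matrix proteoglycans Lum and Dcn by -0.55 ± 0.21 and -0.18 ± 0.14, though the 3 other detected Dcn probes, all dimmer, differed by -1.16, -0.38 and -0.46. Genes of endothelium and vessels had a median of -0.23, 5 of 30 above 0, with 0 higher and 5 lower at an unadjusted p below 0.05, against those same shares. Rgs5, a pericyte gene, differed by -1.85 ± 0.47, Cdh5, the cadherin of endothelium, by -0.85 ± 0.22, and the receptor genes Tie1 and Tek by -0.76 ± 0.25 and -0.80 ± 0.34. Ramp2 and Egfl7 had -0.21 ± 0.29 and -0.09 ± 0.22. The Trp53 cKO lay near 0 in both lists, at medians of -0.05 and -0.06, against -0.37 and -0.20 in the Cdh1 cKO and -0.63 and -0.55 in the double cKO, and control replicate 3 had -0.41 and -0.36.

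The list of p53 targets showed no common shift. Its median was 0.02 over 29 tested genes, 16 above 0, against 46.5% of all genes. At an unadjusted p below 0.05, 1 was higher and 1 lower, against 3.32% and 4.44% of all genes. Cdkn1a, the p21 inhibitor of the cell cycle, measured 9.80, 9.13 and 10.54 in the Cdh1 cKO, 6.56, 8.24 and 7.91 in the Trp53 cKO and 9.23, 8.37 and 8.43 in the double cKO, against 6.97, 6.98 and 7.66 in controls. It was highest in the Cdh1 cKO, and Trp53 cKO replicate 1 lay below all controls (1.49 ± 0.63). Ercc5, a DNA repair endonuclease, differed by -0.53, -0.54 and -0.53 in the Cdh1, Trp53 and double cKO, but its second detected probe was higher by 1.52. Dcxr and Sesn1, of sugar metabolism and of growth control under stress, had -0.58 ± 0.33 and -0.49 ± 0.29. Rps27l, a ribosomal protein gene, had 0.12 ± 0.13 and Ddit4l, of growth control, -0.48 ± 0.56. Proliferation genes had a median of -0.01 over 35 tested, and 0 passed an unadjusted p below 0.05 in either direction, against 7.76% of all genes. By genotype their median was -0.66 in the Cdh1 cKO, 0.69 in the Trp53 cKO and -0.06 in the double cKO, so the pooled median hides unlike genotypes. None passed the test among genotypes, as 0.959% of all genes did. Per uterus it was -0.94, 0.20 and -0.93 in the Cdh1 cKO and 0.80, 0.56 and 0.70 in the Trp53 cKO. In the double cKO it was -1.33, 0.78 and 0.34, and in controls it ran from -0.38 to 0.71. Outside the naming rule, the cell cycle inhibitors Cdkn2b and Cdkn2a were looked at after their values were seen. Cdkn2b differed by 2.34 ± 0.69, and Cdkn2a by 0.28 in the Cdh1 cKO, 0.13 in the Trp53 cKO and 3.25 in the double cKO, a difference among genotypes with a limma adjusted p of 4.02e-04. The 2 other detected Cdkn2a probes also had higher means in ablated uteri, with a control mean at background for one of them. Over all genes named, 9 of 83 other detected probes differed by 0.1 or more in the opposite direction to the probe used.

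**Figure D3:**
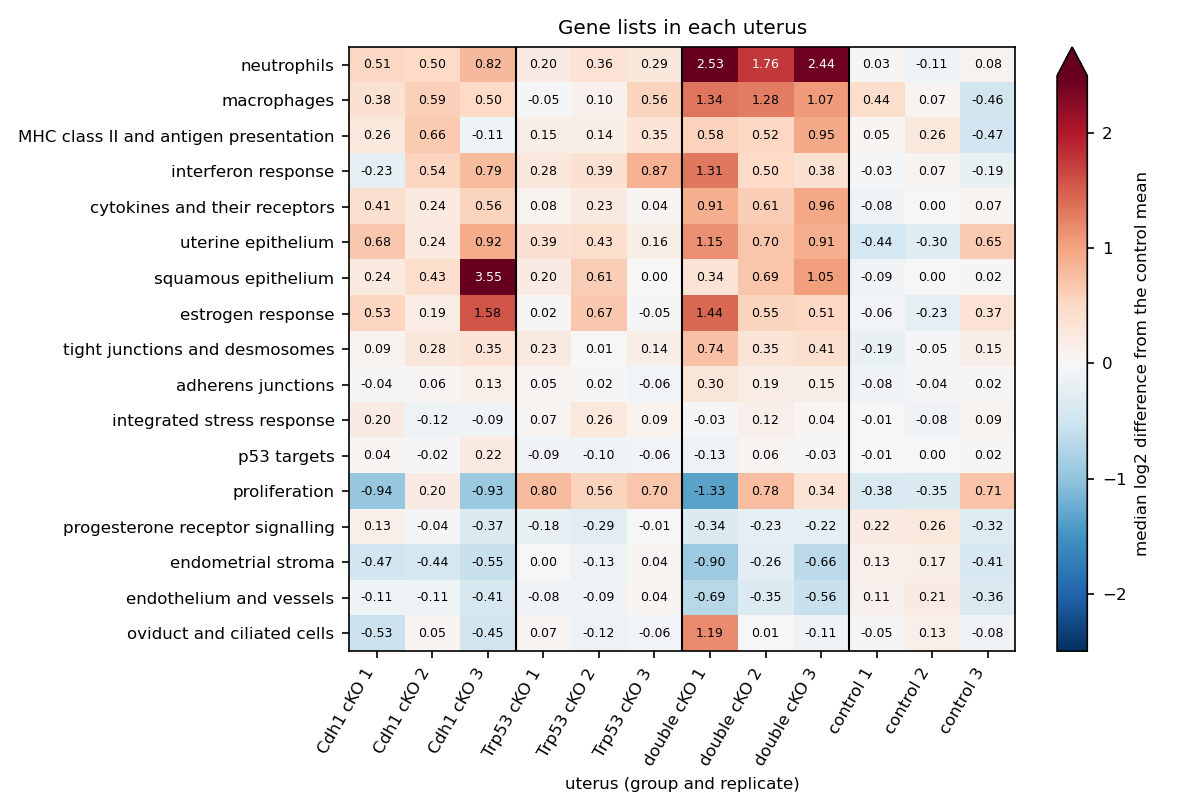
Median log2 difference from the control mean (colour and printed value) of 17 gene lists, 1 row per list and 1 column per uterus. The neutrophil row is highest in the double cKO (1.76 to 2.53), Cdh1 cKO replicate 3 stands alone in the squamous row (3.55), and control replicate 3 resembles ablated uteri in the epithelium row (0.65).

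Most genes with a symbol beginning in H2, mainly histocompatibility genes, had a higher mean in ablated uteri. None passed either fit, and the controls were split on some of them. Of the 24 tested, chosen by symbol alone, 20 had a higher mean and 4 a lower one, where 46.5% of all genes had a higher mean. Differences of at least 1 were found for 8 upwards and 0 downwards, against 2.09% and 1.06% of all genes. In all 3 genotypes 10 were higher by at least 0.5, against 1.96% of all genes. Their median was 0.61. These genes are near-identical copies in part, so signal can be shared between their probes. Of the 17 tested genes of class II and antigen presentation, 13 were above 0, with a median of 0.31. By genotype the median was 0.19 in the Cdh1 cKO, 0.08 in the Trp53 cKO and 0.69 in the double cKO. At an unadjusted p below 0.05, 5 were higher and 0 lower, against 3.32% and 4.44% of all genes. H2-Eb1, a class II beta chain, measured 10.90, 11.79 and 9.89 in the Cdh1 cKO, 11.17, 10.16 and 11.10 in the Trp53 cKO and 11.27, 11.49 and 10.84 in the double cKO, against 5.72, 5.59 and 10.18 in controls. Control replicates 1 and 2 were far below every ablated uterus, and control replicate 3 lay among them. H2-Aa had the same layout, with 4.46 and 4.72 in control replicates 1 and 2 and 8.17 in control replicate 3, against 7.45 to 9.68 in ablated uteri. H2-Ab1, another class II beta chain, did not split the controls, at 11.22, 10.86 and 11.28, and differed by 0.82 ± 0.32. Cd74, the class II chaperone, differed by 0.30 ± 0.32, with controls at 12.37, 12.20 and 11.25. For Cd74, control replicate 3 lay below all ablated uteri, which measured 11.64 to 13.00. The costimulator gene Cd80 was not detected in controls and was at least 1.30-fold higher, though a second probe, detected on 4 arrays, differed by 0.01. Outside the naming rule, of class I genes, H2-Q7 differed by 1.95 ± 0.48, H2-T23 by 1.58 ± 0.42, H2-K1 by 1.25 ± 0.30 and H2-Q5 by 2.54 ± 0.64. Controls of H2-Q5 were split, at 6.81, 6.87 and 10.01. Other class I genes mostly differed less: H2-Q8 by 0.89, H2-T10 by 0.65, H2-D1 by 0.48, H2-Q2 by 0.40, H2-M3 by 0.23 and H2-Q1 by 0.13, while H2-M2 had 1.58. H2-M2, counted among the 8 above, was high in the double cKO alone, at 8.47, 9.83 and 9.20. It measured 4.37 to 5.82 in the other ablated uteri and 4.50 to 5.04 in controls.

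Without control replicate 3, limma's pooled fit called 15 genes, 8 higher and 7 lower, and these are named after their values were seen. In 14 of the 15, control replicate 3 lay within the range of the ablated uteri, the exception being Tfrc, where it lay above. The higher ones were H2-Eb1, H2-Aa, H2-Q5, Ttc27, Mrps10, Wdr46, Adgrf5 and Tfrc, and the lower ones Pla2g10, Wfdc3, Slc5a11, Rims3, Sapcd1, Chst10 and Mme. Ttc27, a tetratricopeptide repeat gene, measured 7.99 to 9.33 in ablated uteri, against 4.52, 4.71 and 8.27 in controls. Pla2g10, a secreted phospholipase, measured 4.29 to 5.61, against 9.32, 9.28 and 4.91. Mrps10, of the mitochondrial ribosome, measured 9.04 to 10.50, against 7.0, 6.81 and 10.36, but its 2 other detected probes were lower in ablated uteri, by -0.39 and -0.86. Of the 15 genes 8 lie on chromosome 17 (53.3%), as do 622 of the 12181 tested genes with a known chromosome (5.11%), 10 of the 65 genes above all controls (15.4%) and 2 of the 118 below (1.69%). Whether control replicates 1 and 2 carry the same H2 alleles and chromosome 17 background as the other mice was not tested, so these are differences in probe signal. The number of genes beyond all controls was 1204 without control replicate 3, against 419 and 305 without control replicates 1 and 2 and 289 without Trp53 cKO replicate 1. That count can only grow when an array is left out, and the genes shifted the same way numbered 971 without control replicate 3.

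**Figure D4:**
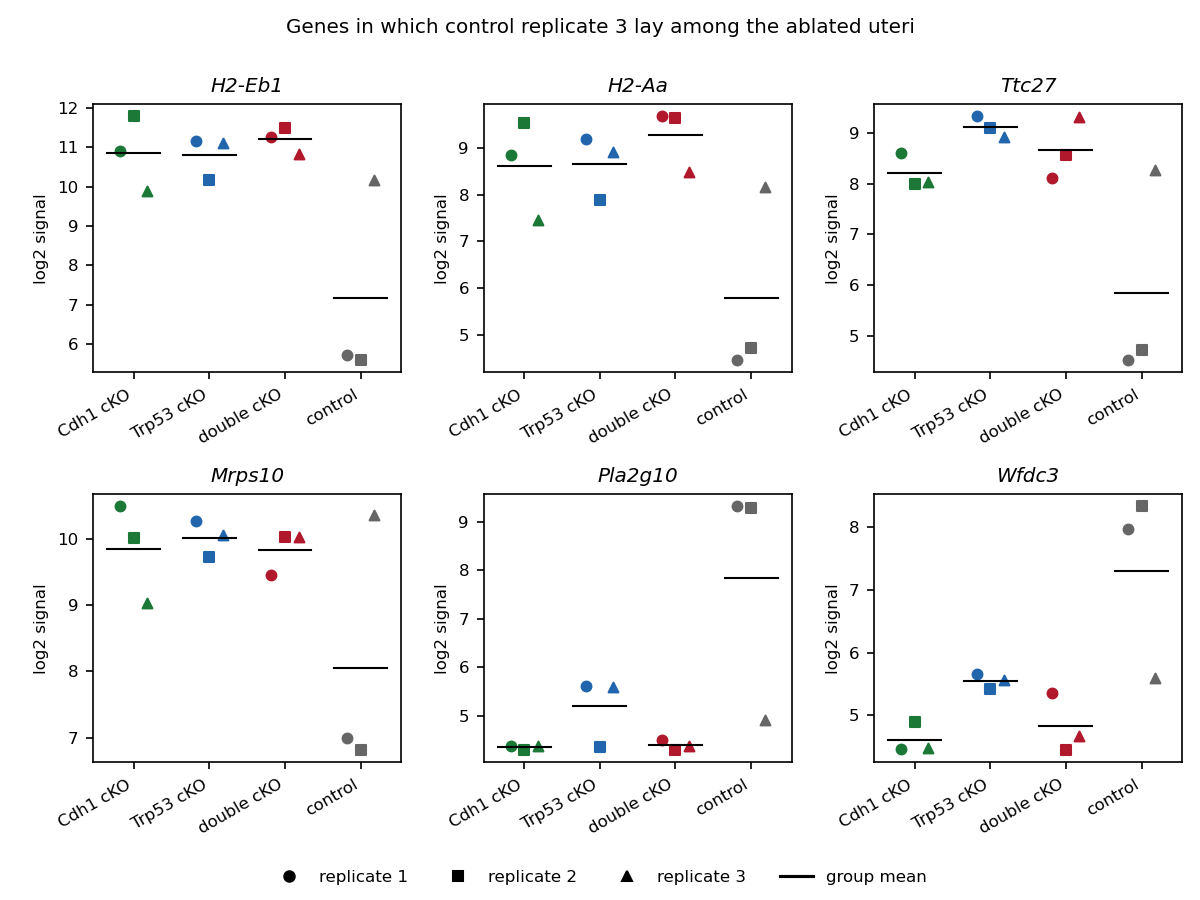
Log2 signal (vertical axis) of 6 of these 15 genes in each uterus, by labelled group, with bars at group means. In every panel control replicate 3 (triangle, right) lies among the ablated uteri and away from control replicates 1 and 2.

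**Figure D5:**
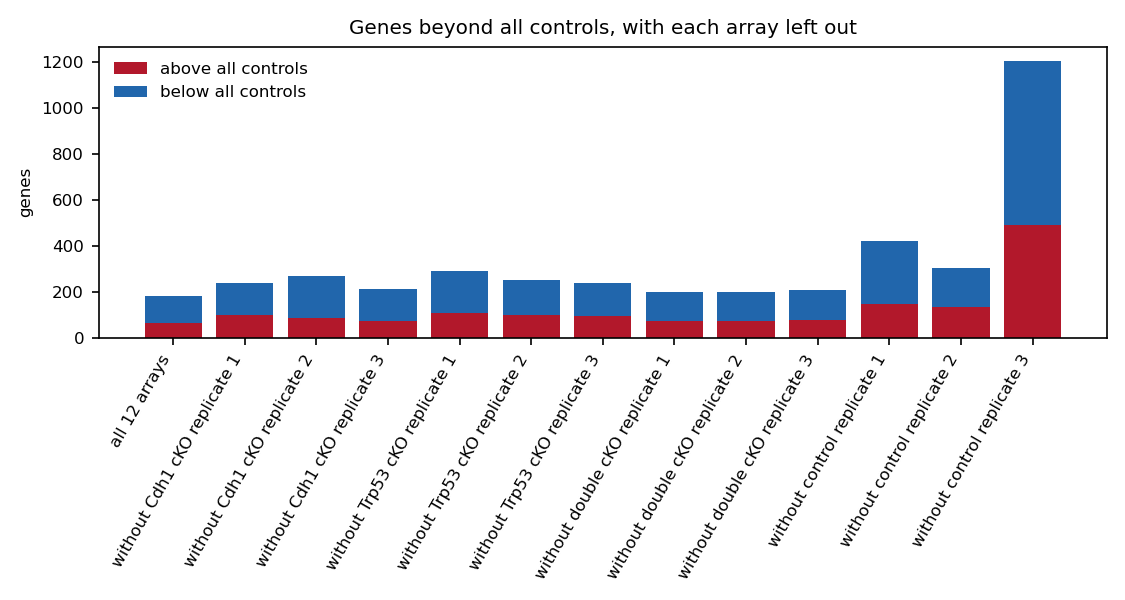
Number of genes (vertical axis) above all controls and below all controls, with all 12 arrays and with each array left out in turn. The bar without control replicate 3 holds 1204 genes, 492 above and 712 below, and the bars without an ablated uterus hold 199 to 289.

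The windows around the gene starts were compared as a last description. RefSeq held one for 48 of the 65 genes above all controls, 103 of the 118 below and 9799 of all genes tested. TGANTCA, the AP-1 letters, stood in 16.7% of those above and 4.85% of those below, against 6.88% of all genes tested and 7.81% of all windows in the table. GGAAGT, the ETS letters, stood in 37.5% and 24.3%, against 31.2% and 23.8%. GGGCGG stood in 54.2% and 67%, against 66% and 35.7%, CACGTG in 8.33% and 8.74%, against 11.3% and 7.15%, and TATAAA in 14.6% and 9.71%, against 9.95% and 13.6%. No test was made of these shares.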

How the data were processed

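Intensities per probe, not normalized, each with a detection p-value and a bead count, were deposited for the 12 arrays, per the file headers, beside the authors' own matrix of log2 values for those arrays. How that matrix was made is not described in the sources used here, beyond limma 3.10.2 in the submitters' processing notes. Its columns share a median of 4.72 and differ by at most 0.0234 from log2 values computed here from the deposited intensities with neqc (offset 16), so it holds log2 signals without centring on genes. The matrix was used, and 12 columns of bead standard errors were left out.

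Kept were probes detected at p below 0.05 on 3 or more of 12 arrays (23229 of 45281), and those with 1 symbol in the platform annotation were named (19680), symbols being updated through the RefSeq genes of GRCm38.p6. Of all probes, 34885 had 1 symbol, 18 several and 10378 none. Each of 12194 genes took its detected probe with the highest mean over all arrays. Limma 3.58.1 in R 4.3.3 fitted ablated against control (10 residual degrees of freedom), and a mean per group with the average of the 3 ablated means against control and an F test among them (8 residual degrees of freedom), with eBayes, 2-sided p-values and Benjamini-Hochberg adjustment over all genes. Both fits were also run on simulated data with equal shifts in all ablated arrays and no differences between genotypes. That simulation does not address genes that differ between genotypes. A fold marked "at least" sets a group with no detected array at the higher of the probe's own signal and the lowest detected signal per array. The number of arrays limits the precision.

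The arrays, gene lists and tests were chosen with earlier results of these data known. Named are Pgr, Nupr1 and Cdh1, the 12 genes farthest beyond the controls each way, and for each list described the 4 members of smallest p and the 2 of highest mean. Of 43 lists, 27 had a median above 0 and 16 below, from -0.45 for the circadian clock to 0.96 for squamous epithelium. Alternatives were other normalizations, detection filters, probe rules and limma settings, and leaving out arrays, genotypes or replicates.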

Additional observations from a re-analysis of the deposited data

Results flagged for a closer look

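Some ablated uteri stood far from the other 8 for a gene, by Dixon's test, which chance meets in about 1 group in 20. Cdh1 cKO replicate 1 was highest for Akr1c18 at 10.76 and for Pinlyp at 11.09, and lowest for Gcnt3 at 7.19 and for Ltf at 10.97.

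The 3 ablated genotypes differed from each other, by limma's F test with adjustment over all genes, in many of the genes named. Among neutrophil and cytokine genes the adjusted p was 0.00836 for S100a8, 0.00587 for S100a9 and for Il7r, 4.02e-04 for Clec4d, 0.00376 for Il1b, 8.19e-05 for Il1rn, 0.00517 for Tnf, 0.0408 for Tnfrsf1b and 0.0143 for Ppbp. Other myeloid and inflammatory genes had 0.00402 for Sirpb1a, 0.00616 for Slc15a3, 0.0163 for Dpep2 and 0.00587 for Tnfaip2. Genes of matrix and junctions had 8.19e-05 for Mmp12, 1.98e-04 for Mmp13, 0.0028 for Col8a1, 0.0202 for Vit and 0.00604 for Cldn4. The adjusted p was 0.0311 for Nupr1 and 4.02e-04 for Cdkn2a. In all of these genes the double cKO lay farthest from control. For Arsj, lowest in the double cKO, the adjusted p was 0.0122. Trim11 (8.19e-05) and 4933427D14Rik (1.10e-04) were low in the Trp53 cKO and the double cKO alone.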

How the results depend on the processing

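The pooled fit called 0 genes and the fit with a mean per genotype 21. The pooled fit called 82 with array weights, 2 without the Cdh1 cKO arrays, 1 without the Trp53 cKO arrays and 0 to 15 with 1 array left out, 15 being without control replicate 3. Genes beyond all controls numbered 277, 410 and 738 without the double, Cdh1 and Trp53 cKO arrays, and 199 to 1204 with 1 array left out. Genes shifted the same way numbered 164 without background correction, 6578 without a size minimum, 83 at a minimum of 1, 1366 without the Trp53 cKO arrays and 299 to 971 with 1 array left out. The 117 genes differing among genotypes became 37 on probes detected on all 12 arrays, 46 to 138 with 1 array left out and 2868 with array weights, whose estimation stopped before it converged. The number called with a mean per genotype, recomputed in ways chosen after seeing the data, was 0, 53 and 86 without the double, Cdh1 and Trp53 cKO arrays, 3 to 88 with 1 array left out, and 21 from the recomputed log2 values. Of 18 same-numbered pairs of arrays, the 3 of Cdh1 cKO with control had deviations correlated by 0.22 to 0.33 and the other 15 were not above 0.1, so the numbers were not taken as pairs. With the replicate number as a block, limma's pooled fit called 0 genes (795 at an unadjusted p below 0.05), the fit with a mean per genotype 8, and the test among genotypes 75. Fewer arrays change the counts by construction, and for other settings the cause was not tested.

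Of 3359 recomputed values of 136 named genes, 3279 kept direction and side of the threshold and 68 passed the threshold where the pooled fit did not. Those that turned were Egfl7 (0.02 with all probes averaged, 0.08 without the double cKO), Ercc5 (0.49 with all probes averaged), Krt10 (-0.04 without the Cdh1 cKO arrays, -0.02 with array weights, -0.02 to 0.10 with 1 array left out), Ifi27 (-0.03 with array weights, -0.06 to 0.16 with 1 array left out), and, with 1 array left out, Il6st (-0.38 to 1.71), Cd74 (-0.04 to 0.51) and Gars (-0.21 to 0.01). The lowest was without control replicate 2 for Il6st and without control replicate 3 for Ifi27 and Cd74, and the highest without control replicate 3 for Gars. Of 602 recomputed list medians 589 moved by less than the spread between replicates. Chip, litter and cycle stage are not known and their part was not tested, and genes at the array's background carry no size.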
